A study of Homo sapiens with 10 samples.

Results

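The known 2′-O-methylated positions of human 18S and 28S rRNA were followed through the NextSeq libraries of a RibOxi-seq experiment on PA1 cells, a line derived from a human ovarian teratoma. The members were the 106 positions that the study's site list gives as already known, out of 6939 positions of both rRNAs, and each was matched to the deposited counts by its exact position. 18S held 40 of them, with 13 A, 7 C, 9 G and 11 U sites, and 28S held 66, with 20 A, 17 C, 21 G and 8 U sites. The groups were 3 control and 3 oxidized libraries of this line, out of 10 libraries in the series, and no other treatment is labelled. RNA of all 6 was fragmented with the nuclease Benzonase. By the study's protocol, oxidized samples then went through periodate, β-elimination, phosphate removal and a further periodate step, while control samples were set aside until linker ligation. In both groups, passage 6 cells gave replicates 1 and 2 and passage 4 cells gave replicate 3. The labels do not say whether replicates were separate cultures, so the p-values measure only the spread between these libraries, which may be technical.

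A 2′-O-methyl group sits on the ribose of a nucleotide and is placed in rRNA mainly by fibrillarin, the methyltransferase of box C/D ribonucleoprotein particles, in which a small nucleolar RNA (snoRNA) pairs with the rRNA and so selects the nucleotide. Because the mark is on the sugar, any of the 4 bases can carry it. A methylated nucleotide resists nuclease cleavage on its 3′ side, so that a digest yields few fragments ending on it. β-Elimination takes off the last nucleotide of an oxidized fragment and can lay bare a methylated one before it, and periodate then spoils for ligation every 3′-end that still has a free diol. Each known site therefore has 2 readouts here, a level in oxidized libraries and a gap in control libraries.

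The following windows of 21 bases show sites on which the comparisons below turn. They are given 5′ to 3′ as RNA from the plus strand of the unplaced contig GL000220.1 in hg19 (GRCh37), with the listed site in capitals. The first 5 are the sites with the highest oxidized level of each base, with both leading U sites, the next 2 moved in opposite directions between control libraries, and the last lacks the listed base in the reference.
18S U1804, GL000220.1:110871-110891: cggucgaacuUgacuaucuag
28S U2414, GL000220.1:115752-115772: ggguuccaugUgaacagcagu
28S A3829, GL000220.1:117167-117187: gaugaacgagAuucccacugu
28S C4535, GL000220.1:117873-117893: uggguuuagaCcgucgugaga
28S G3791, GL000220.1:117129-117149: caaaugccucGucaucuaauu
28S A3784, GL000220.1:117122-117142: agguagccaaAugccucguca
28S C3886, GL000220.1:117224-117244: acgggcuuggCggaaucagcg
28S A3719, GL000220.1:117057-117077: gaaugucaaaGugaagaaauu
18S is numbered from 1 at contig position 109078 and 28S from 0 at 113348. The 18S sequence occurs 2 times on this contig, and so do the first 1000 positions of 28S, which hold the known sites A397 and A399, so that counts from these copies cannot be told apart. The reference has the listed base at 40 of 40 18S sites and 64 of 66 28S sites, and it differs at A3719G and G4043U. In these names the letter before the position (numbered from 0 in 28S) is the listed base and the letter after it that of hg19.

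The value of a position in a library is its deposited count, which the study's methods describe as a tally of sense reads by 3′-end, made before normalization. Most of the library totals exceed the sequencer output in reads that the study gives, so these values cannot be plain read tallies. Control replicates 1, 2 and 3 held 72458614, 80964624 and 75495510 counts, and oxidized replicates 1, 2 and 3 held 13237673, 12293410 and 13694386. Many low counts lay at or just above a multiple of 50: of counts from 50 to 499, 92.9% to 94.6% in oxidized and 62.3% to 70.2% in control libraries were at most 10 above one. Smaller counts also occurred: oxidized libraries had 743 to 801 positions with 1 to 49 counts, control libraries 69 to 187, and neither the labels nor the study's methods say how these values arose. Where a counting error is given, 1 read was taken to stand for 50 counts, which is an assumption. On that scale a position at 0 allowed up to 3 reads of 50 counts, which is 1.85 to 2.07 counts-per-million (CPM) of the library total in control and 10.95 to 12.2 CPM in oxidized libraries, and these limits cover counting error only.

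The libraries of a group were not alike. Across the 106 known sites, Spearman's rho was 0.944 between control replicates 1 and 2, but 0.353 and 0.402 between these and control replicate 3. Oxidized libraries had rho of 0.990, 0.990 and 0.998 with each other. In whole steps of 50 counts, control replicates 1 and 2 differed in size by little more than counting noise. Their chi-square per degree of freedom was 1.13 at positions with at least 10 steps (p = 4.97e-12 by a chi-square test), against 203 for control replicates 1 and 3. Oxidized replicates 2 and 3 were about as close (1.15, p = 0.00898 by a chi-square test at positions with at least 10 steps, and 1.01, p = 0.335 over all positions), although the labels give them different passages. At the known sites the values were 1.33 for control replicates 1 and 2 and 1.545 for oxidized replicates 2 and 3. The libraries of these close pairs were kept separate, and results with the close pairs joined are given with the other processing choices.

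Control replicate 3 also differed from the other control libraries in the bases at which fragments ended outside the known sites. A and U received 10.6% and 10.5% of these ends in control replicate 1, 10.5% and 10.6% in control replicate 2, and 26.5% and 24.8% in control replicate 3. C and G received 35.1% and 43.8%, 35.1% and 43.9%, and 21.8% and 26.9%. Control replicate 3 thus lay nearer to the oxidized libraries, in which A took 30.5% to 30.9% and G 21.4% to 21.9% of the ends outside known sites, at either passage. A is 17.3% and G 34.3% of the positions outside known sites, and A is 31.1% and G 28.3% of the known sites. Every control value by base is therefore given per library below, and passage and library cannot be told apart in replicate 3.

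**Figure D1:**
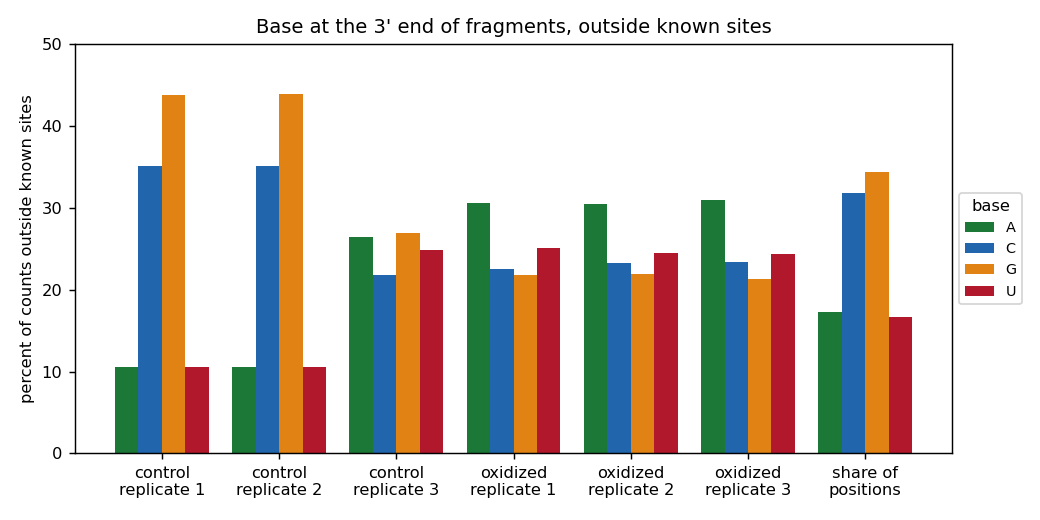
Percent of counts outside known sites (y axis) whose 3′-end lies on A, C, G or U, for each of the 6 libraries (x axis), with the share of each base among those positions at the right. Control replicates 1 and 2 have 10.5% to 10.6% of such ends on A, whereas control replicate 3 has 26.5% and the oxidized libraries 30.5% to 30.9%.

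Known sites took almost all counts of oxidized libraries. Oxidized replicates 1, 2 and 3 had 95.2%, 94.8% and 95.02% of their total there (95% Wilson intervals 95.1% to 95.2%, 94.7% to 94.9% and 94.9% to 95.1%, on counts taken in steps of 50), and control replicates 1, 2 and 3 had 0.359%, 0.385% and 0.732%. By base, U sites held 55.1% ± 2.78 (SD, n = 3) of the oxidized total, A sites 14.9% ± 0.225, G sites 12.5% ± 1.18 and C sites 12.4% ± 1.24. By rRNA, 28S sites held 56.8% ± 1.65 and 18S sites 38.2% ± 1.47. In control libraries A sites held 0.0372%, 0.0448% and 0.226%, C sites 0.0843%, 0.0829% and 0.0618%, G sites 0.105%, 0.113% and 0.266%, and U sites 0.133%, 0.145% and 0.179% in replicates 1, 2 and 3. The share of A, G and U sites was thus highest, and that of C sites lowest, in control replicate 3.

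The large share of U rested on 1 site in each rRNA. 18S U1804, which snoRNA U20 guides, had 3866945, 3692634 and 4055041 oxidized counts in replicates 1 to 3. Its control counts were 15491, 20187 and 8987. It alone was 29.6% of the oxidized total and 94.5% ± 0.495 (SD, n = 3) of the oxidized counts at 18S U sites. 28S U2414 had 3251701, 2245942 and 2550388 oxidized counts and 65515, 80228 and 6707 control counts, which made it 85.8% ± 2.66 of the oxidized counts at 28S U sites. Oxidized replicate 1 lay highest at U2414 and lowest for C and G sites together (10.9% and 11.2%, against 13.0% to 13.3% in replicates 2 and 3). In the other bases the leading sites held a smaller part of their class: 28S A3829 27.8%, 28S C4535 24.4% and 28S G3791 19.4% of the oxidized counts at A, C and G sites.

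By the level of a typical site, the bases were close. The median over the sites of a base was 2839 ± 207 CPM (SD, n = 3 libraries) for G, 2526 ± 179 for U, 2121 ± 226 for A and 2045 ± 234 for C in oxidized libraries. The library medians of A (1860 to 2268 CPM) and C (1781 to 2227) overlapped, and so did those of G (2603 to 2988) and U (2325 to 2667), whereas those of G and of U both lay above all those of A and C. 28S sites lay higher (2770 ± 302 CPM) than 18S sites (1475 ± 76.4), with no overlap between the library medians. Outside known sites, 18S has 26.8% of the positions and received 16.4% to 16.7% of the ends in control and 24.99% to 26.9% in oxidized libraries, and the part of this in the difference between the rRNAs was not tested. The whole 18S sequence also occurs 2 times on the contig and the whole 28S sequence 1 time, and the effect of this on the levels was not tested. The order by base was not the same in both rRNAs: in 18S the medians were 949 ± 62.1 for A, 1234 ± 198 for U, 1706 ± 248 for G and 2023 ± 292 for C, and in 28S 2067 ± 181 for C, 2835 ± 497 for A, 3022 ± 41.9 for G and 4308 ± 58.5 for U. In all, 75 sites had a mean above 1000 oxidized CPM, namely 21 A, 16 C, 26 G and 12 U sites, and 15 sites were above 10000 CPM.

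**Figure D2:**
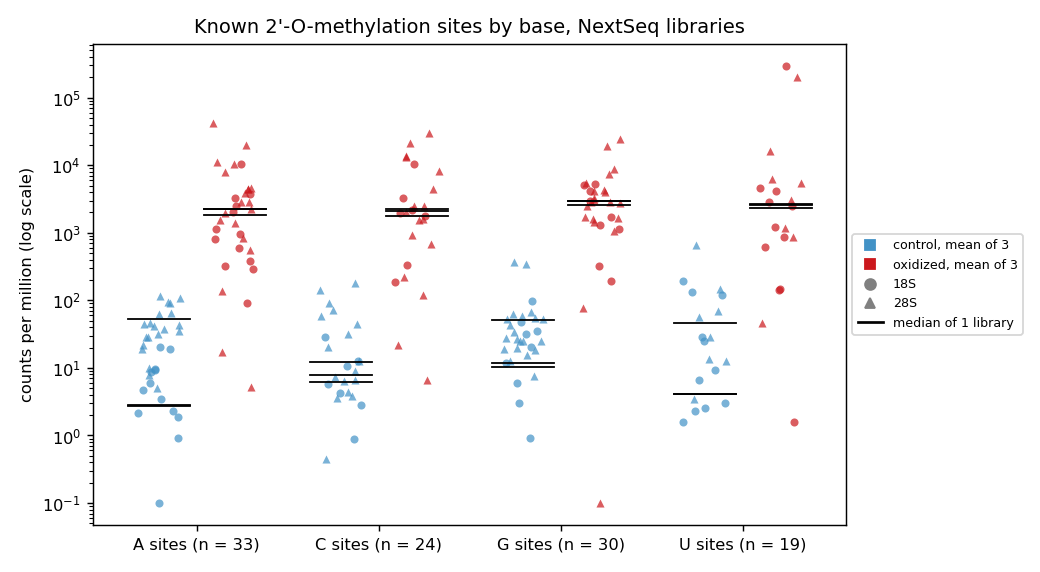
Mean CPM of each known site (y axis, log scale) in the control libraries (blue) and the oxidized libraries (red), by base (x axis), with circles for 18S and triangles for 28S sites. Black lines are the medians of single libraries, and a site at 0 is drawn at 0.1. Red points lie above 1000 CPM at 75 sites, 18S U1804 and 28S U2414 stand highest, and the control lines of A, G and U sites are split because control replicate 3 lies above the other 2.

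Whether a site rose in oxidized libraries was tested over the 6718 positions with any count, by edgeR's quasi-likelihood test. A site was called where the log2 fold change was above 7 and the Benjamini-Hochberg adjusted p-value under 0.05. By this rule 97 of 106 known sites were called, and 103 of 6718 positions, or 1.53% of those tested. The fold threshold of 7 is the study's, which set its filters by the known sites with the lowest fold changes in these same libraries. A high rate of calls among known sites was thus partly built in, and the rate is no test of the sites or of the method. With library totals in place of TMM scaling 51 known sites were called, and at an adjusted p-value under 0.0001 none, where 102 were higher at an unadjusted p-value under 0.05 and DESeq2's Wald test called 96. Each base was called about as often: 30 of 33 A sites (background 2.83% of A positions), 23 of 24 C sites (1.14%), 27 of 30 G sites (1.19%) and 17 of 19 U sites (1.59%). In 18S 38 of 40 sites were called (2.16% of 18S positions) and in 28S 59 of 66 (1.3%). At 99 known sites the lowest oxidized share was still above the highest control share, and so it was at 1.65% of all positions. An adjusted p-value under 0.05 with a higher level in oxidized libraries, at any fold, was found at 203 positions (3.02%). This number depended on the control libraries: it was 105 without control replicate 1, 108 without control replicate 2 and 469 without control replicate 3. Leaving out 1 oxidized library gave 151 to 161. Without control replicate 3, 98 known sites were called (1.68% of 6659 positions), with 31 A, 22 C, 27 G and 18 U sites.

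The log2 fold changes of the bases overlapped widely. The median was 11.84 for A, 11.59 for C, 11.06 for U and 10.56 for G sites, and 11.11 over all known sites. The order of A, C and U was not firm. Without control replicate 3 the medians were 13.57 for A, 13.13 for U, 11.78 for C and 11.47 for G. A lay below C without control replicate 1 (11.35 and 11.57), without control replicate 2 (11.28 and 11.60), and with library totals in place of TMM scaling (7.28 and 7.44). The middle 50% of sites reached from 9.42 to 12.95 for A, 9.97 to 12.46 for C, 9.81 to 12.60 for U and 9.77 to 11.70 for G. Positions outside known sites were not level between bases, with medians of -1.07 for A, -0.76 for U, -2.82 for C and -4.33 for G, around -2.25 for all tested positions. Each oxidized library had no count at 3499 to 3595 of the 6939 positions. 18S sites had a median of 12.19 and 28S sites 10.75, with medians of -1.43 and -2.69 at other positions of these rRNAs.

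In 18S, the A, C, G and U sites with the highest oxidized level were A576 (10361 ± 735 CPM, SD, n = 3), C1391 (10573 ± 1634), G1447 (5294 ± 1317) and U1804 (296200 ± 4130). The lowest were A27 (92.0 ± 19.99), C797 (185 ± 28.03), G509 (194 ± 16.8) and U1668 (1.61 ± 2.28). A27, guided by U27, was at 0 in every control library and had 1364, 848 and 1426 oxidized counts, which is at least 33.3-fold higher, from the lowest oxidized level over the highest limit of 3 reads in 1 control library. On the scale of the fit, which divides each library by its TMM factor, the same bound is 8.65 in log2, and the fitted fold of a site at 0 in one group is no measure of its size. With A27 at this bound, the median log2 fold change was 11.51 for A, 12.09 for 18S and 11.07 for all known sites. The largest 18S log2 fold changes of the other bases were at C517 (15.43 ± 1.21 SE), U121 (14.87 ± 0.71) and G683 (14.66 ± 1.35), and control counts at these sites were 54, 13 and 136, then 120, 186 and 271, then 8, 70 and 135 in replicates 1 to 3. At 50 counts a read, these are few reads. The same holds on both sides for 28S C4053, a called site with 0, 0 and 100 control counts and 200, 352 and 300 oxidized counts. Its fitted log2 fold change of 10.20 ± 2.66 SE is therefore no measure of its size either.

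In 28S, A3829 (41572 ± 3704 CPM, SD, n = 3), C4535 (29977 ± 491), G3791 (24498 ± 5145) and U2414 (204857 ± 35364) led their bases. C4535, guided by U35A/B, combined a high level with little spread, with 392500, 365600 and 418250 oxidized counts and 4100, 4150 and 8150 control counts. Its log2 fold change was 12.77 ± 0.51 SE (adjusted p = 0.0004 in edgeR's quasi-likelihood test, Benjamini-Hochberg adjusted). The largest log2 fold changes of a base in 28S were at C3840 (13.89 ± 0.65 SE), A3829 (13.66 ± 1.06), G4195 (13.04 ± 1.46) and U3817 (12.71 ± 1.16). The smallest among called sites lay just past the threshold, at 28S C3807 (7.27 ± 0.87), 18S C1272 (7.94 ± 1.14) and 18S G436 (7.95 ± 0.77). These were C or G sites, but 18S G509 (8.56), 28S A397 (8.67) and 28S A2786 (8.68) came next, so the weakest called sites were not of these bases alone.

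Control libraries were depleted of ends at known sites, to a degree that depended on base and library. The control gap of a site is its count relative to its flanks, taken as the median over the nearest 10 nt in each direction with other known sites left out, so that 1 means no depletion. Its median over the 106 sites was 0.0749, 0.101 and 0.332 in control replicates 1, 2 and 3, against 0.997, 0.993 and 1.002 at other positions. With both rRNAs pooled, A sites were deepest in replicates 1 and 2 (0.0401 and 0.0441), followed by U sites (0.0742 and 0.0795), G sites (0.126 and 0.174) and C sites (0.216 and 0.206). In control replicate 3 C sites were deepest (0.0479), and A, G and U sites were at 0.356, 0.378 and 0.503. By rRNA, the medians in replicates 1, 2 and 3 were 0.0541, 0.0946 and 0.345 in 18S and 0.108, 0.105 and 0.329 in 28S. The order by base in replicates 1 and 2 was not that of both rRNAs. In 18S, A sites were at 0.0229 and 0.0327, G sites at 0.0354 and 0.187, C sites at 0.211 and 0.162, and U sites at 0.131 and 0.222. The median 18S A site had only 0.828 and 1.11 control CPM in replicates 1 and 2. In replicate 1 the median 18S G site had 0.856 CPM, and the median of all 18S sites was 1.70. These lie below the limit of 3 reads (2.07 CPM in replicate 1 and 1.85 in replicate 2), so such gaps are not exact and cannot be ordered among themselves. In 28S, U sites were at 0.0477 and 0.0679, A sites at 0.0578 and 0.0602, G sites at 0.134 and 0.160, and C sites at 0.271 and 0.250. C sites were deepest in replicate 3 in both rRNAs (0.213 in 18S and 0.0428 in 28S).

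Positions outside known sites moved with base in the same libraries. Their medians in replicates 1, 2 and 3 were 0.589, 0.597 and 1.23 for A, 0.493, 0.499 and 1.35 for U, 1.46, 1.47 and 0.868 for C, and 1.24, 1.24 and 0.850 for G. Known sites lay below the other positions of their base in each control library and for each base. With the flanks limited to positions of the same base within 30 nt, the medians in replicates 1, 2 and 3 were 0.0721, 0.0946 and 0.353 at A sites, 0.164, 0.113 and 0.0740 at C sites, 0.108, 0.127 and 0.463 at G sites, and 0.188, 0.217 and 0.258 at U sites. U sites then no longer lay below G and C sites in replicates 1 and 2, whereas C sites stayed the deepest in replicate 3. How far the base preference of the ends sets the gap was not tested.

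A control gap under 0.1 was found at 23 of 33 A sites in replicate 1, 22 in replicate 2 and 4 in replicate 3. For C the counts were 9, 9 and 13 of 24, for G 14, 11 and 4 of 30, and for U 11, 11 and 2 of 19. Among other positions, the shares under 0.1 in replicates 1, 2 and 3 were 10.1%, 9.82% and 0.597% for A, 5.87%, 6.84% and 2.36% for C, 6.76%, 6.77% and 5.74% for G, and 13.6%, 13.4% and 1.17% for U. In 28S, C sites had 7, 6 and 11 of 17 under 0.1, and none of the 20 A sites was under 0.1 in replicate 3, where 12 and 11 were in replicates 1 and 2. A ratio of 1 or more was found at 8, 10 and 7 sites in replicates 1, 2 and 3, 7, 9 and 3 of them in 28S. These include 28S G4043 in replicates 1 and 2, where its counts are near the limit of 3 reads. 28S G3791, a called site with 7898, 7469 and 62603 control counts, was at 1.51 and 1.45 in replicates 1 and 2 and at 0.732 in replicate 3. 28S U2414 was at 1.96 and 2.18 in replicates 1 and 2 and at 0.307 in replicate 3.

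**Figure D3:**
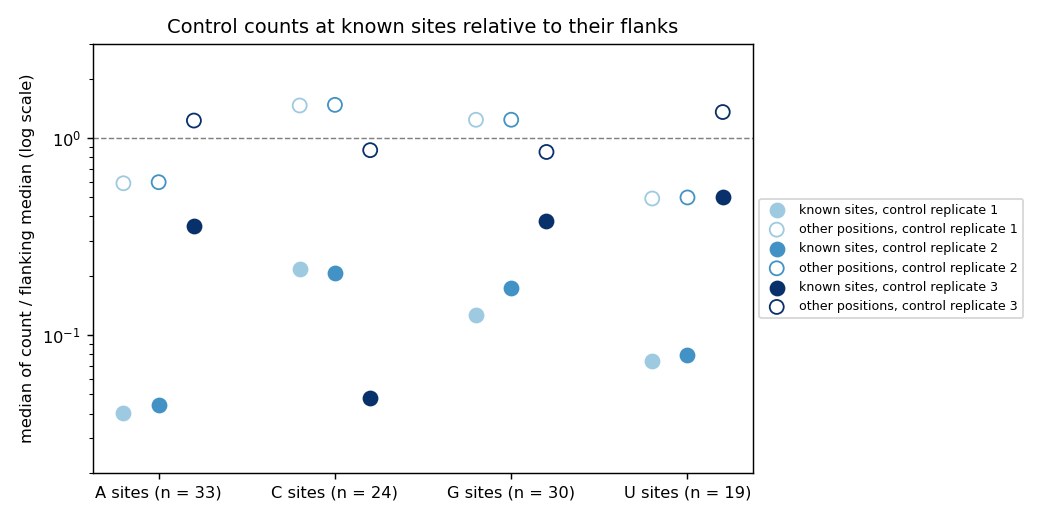
Median control gap (y axis, log scale: count over the median of 10 flanking positions on each side) by base (x axis) in each control library, for known sites (filled) and other positions (open). Both rRNAs are pooled, and known sites lie below other positions of their base in every library, with A deepest in replicates 1 and 2 (0.0401 and 0.0441) and C deepest in replicate 3 (0.0479).

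Around the sites, the nucleotide on the 5′ side was also low in part of the libraries. One nucleotide 5′ of a known site the median ratio to the flanks was 0.293 and 0.306 in control replicates 1 and 2, but 1.003 in replicate 3. This held for each base, with 0.207 and 0.272 next to A sites, 0.335 and 0.304 next to C sites, 0.333 and 0.325 next to G sites, and 0.300 and 0.283 next to U sites. In replicate 3 the values there were 1.01, 1.42, 0.686 and 1.08. One nucleotide 3′ of the sites, the medians were 1.16, 1.25 and 1.15, so the depletion did not reach to that side. In oxidized libraries the neighbours held little: a median of 0.466% ± 0.0187 (SD, n = 3) of the site's own count 1 nt 5′ and 0.369% ± 0.0514 1 nt 3′. C sites had the most on the 5′ side, at 1.83% ± 0.200.

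**Figure D4:**
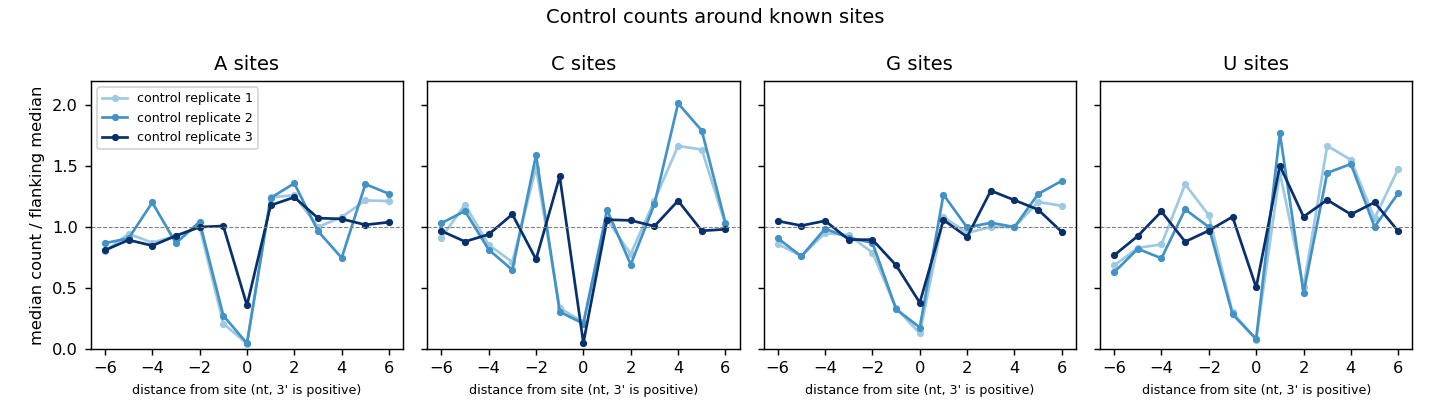
Median control count relative to the flanks (y axis) by distance from the known site (x axis, nt, 3′ positive), for the 4 bases and the 3 control libraries. The dip at 0 is seen in each library, and the dip 1 nt 5′ reaches 0.207 to 0.335 in replicates 1 and 2 while replicate 3 stands at 0.686 to 1.42.

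The spread among replicates was far larger in control than in oxidized libraries. It is given as the SD over 3 libraries of log2(CPM + 1) at a site. The median over the known sites was 1.25 in control and 0.150 in oxidized libraries, and the control SD was above the oxidized SD at 100 of 106 sites. By base, the control medians were 1.87 for A, 1.68 for G, 1.39 for U and 0.74 for C sites, and the oxidized medians 0.15, 0.14, 0.13 and 0.20. Other positions had control medians of 1.29 for A, 0.93 for G, 1.46 for U and 0.89 for C, so the pooled spread of A and G sites stood above that of other positions of their base whereas that of C and U sites did not. Within single rRNAs, however, 28S U sites (2.15, against 1.44 at other 28S U positions) and 18S C sites (1.119, against 0.88) also stood above. Without control replicate 3, the control median of the known sites was 0.22.

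Control replicate 3 lay above the mean of control replicates 1 and 2 at 80 of 106 sites, and by more than 4-fold at 53, on the log2(CPM + 1) scale. It lay above them at 66.8% of other positions, and by more than 4-fold at 33.5%. Known sites were higher at 29 of 33 A (87.2% of other A positions), 13 of 24 C (55.6%), 22 of 30 G (55.8%) and 16 of 19 U sites (88.6%). The 53 sites past 4-fold comprised 22 A (52.9% of other A positions), 16 G (22.3%) and 12 U sites (59.1%) but 3 C sites (21.1%), all of the latter in 18S. The median difference was 3.23 for A, 2.55 for G, 2.07 for U and 0.31 for C sites, and at other positions 2.13, 0.28, 2.41 and 0.31. The comparison with other positions was not the same in both rRNAs. G sites stood further than other G positions in 18S (3.12 against 0.46) and in 28S (2.07 against 0.21), and so did A sites, by little in 18S (2.50 against 2.25) and by more in 28S (3.70 against 2.02). U sites stood less far in 18S (2.07 against 2.45) but further in 28S (3.02 against 2.34). C sites stood further in 18S (0.98 against 0.56), and in 28S they lay on the other side (-0.14 against 0.22).

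The control sites with the largest spread show this. 28S A3784, guided by U15A/B, had 202 and 400 control counts in replicates 1 and 2 and 25559 in replicate 3, against 105188, 140471 and 159621 oxidized counts. 18S G1490 (U25) had 152, 418 and 21396 control counts, 18S G1328 (U32A) 4, 104 and 7114, and 18S U1326 (U33) 8, 156 and 6339. The opposite was seen at 28S C3886 (U47), with 20014, 20670 and 250 control counts and 156681, 179470 and 194987 oxidized counts. All 5 were called, and at each of them every control share lay below every oxidized share. The log2 fold change of A3784 was 11.07 ± 2.16 SE with, and 15.02 ± 0.59 without, control replicate 3, and that of C3886 9.91 ± 1.91 with and 9.31 ± 0.15 without it.

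The smallest control SD was found at 5 sites, of which A27, at 0 in every control library, and 18S A99, with 126, 129 and 180 control counts, lay at or near the limit of 3 reads, where a small SD says nothing about how level a site is. The others were 28S G4617 (4550, 4450 and 4400 control counts), 28S G4498 (1250, 1700 and 1400) and 18S G436 (1237, 1791 and 1605). In oxidized libraries the largest spread was at 28S A3719, 28S A2362 and 18S U1668, which all had few counts there. Some sites with a high level also spread, as 28S G3791 (24498 ± 5145 CPM, SD, n = 3), 28S C3868 (13408 ± 3313) and 18S G1447 did.

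An interaction of oxidation and passage was fitted after control replicate 3 had been seen to stand apart. Passage 4 has 1 control and 1 oxidized library, and the spread in this fit comes from replicates 1 and 2 alone, of which the control pair lay close to counting noise. The fit thus restates the difference that prompted it, and its p-values are not given as support. In edgeR's quasi-likelihood test 17 known sites and 4.08% of all positions had an adjusted p-value under 0.05. At 28S C3886 the fitted log2 fold of oxidized over control was higher by 7.43 in replicate 3, and at 18S A159 the difference was -6.83. A159 had 4, 4 and 1045 control counts and 3673, 3510 and 4294 oxidized counts, so that the move was on the control side.

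The 9 known sites that were not called fell into different kinds. 28S G3743 (6.87 ± 1.14 SE, adjusted p = 0.0359 in edgeR's quasi-likelihood test, Benjamini-Hochberg adjusted) and 28S U4497 (5.16 ± 1.26, adjusted p = 0.0371) passed the p-value but not the fold. G3743 had 43505, 39995 and 45831 oxidized counts, a level above the median of all known sites, but also 35744 and 43718 control counts in replicates 1 and 2 and 5690 in replicate 3. 18S A1031 (8.69 ± 2.53, adjusted p = 0.0512) passed the fold but not the p-value. It had 3454, 4643 and 4486 oxidized counts and 2, 50 and 4227 control counts, and without control replicate 3 it was called, at 13.57 ± 2.05 (adjusted p = 0.0252 by the same edgeR quasi-likelihood test). U4497 was also called without that library (7.19 ± 0.34), whereas 28S C3807 was then just under the fold threshold (6.90 ± 0.39 SE without and 7.27 ± 0.87 with that library).

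The remaining uncalled sites were low in oxidized libraries. 28S G1521 had 1074, 930 and 976 oxidized counts and 200, 0 and 5485 control counts. 28S A2362 had 58, 304 and 311 oxidized counts, 28S C2291 104, 56 and 106, and 18S U1668 2, 52 and 6. C2291 and U1668 were also without a deep control gap, at 1.13, 1.07 and 1.79, and at 0.687, 0.708 and 0.590 in replicates 1, 2 and 3. The same held for 28S A3719 (0.630, 0.636 and 0.873). Both listed sites whose base is not that of the reference were among the uncalled. 28S G4043 (G4043U) was at 0 in all 3 oxidized libraries and had 152, 150 and 3902 control counts, and no fold is given for it. Its control counts in replicates 1 and 2 are near the limit of 3 reads, as are those around it, so its gap there cannot be read, and in replicate 3 it was 0.770. 28S A3719 (A3719G) had 4, 100 and 102 oxidized counts, whereas A3717, 2 nt 5′ of it in the window printed above, had 42874, 48606 and 53497 oxidized counts and 150, 300 and 9058 control counts. A3717 was 1 of 6 called positions that the list does not give as known. The study reports it as a newly found site and tested it by primer extension at low dNTP concentration. By the same method the study saw no stop at 18S U1668.

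Known sites that lie close together had unequal oxidized levels. In 13 pairs of neighbouring known sites at most 3 nt apart, the 5′ site was the lower one in 11, in every oxidized library. The median log2 ratio of 5′ to 3′ site was -2.24, -2.21 and -2.28 in oxidized replicates 1, 2 and 3. In pairs 4 to 10 nt apart the 5′ site was lower in 13 of 21, at 11 to 20 nt in 14 of 25, and beyond 20 nt in 20 of 45. The ratio was smallest at 28S A2362 and C2364 (0.00667 ± 0.00395, SD, n = 3), U4497 and G4498 (0.0162 ± 0.00156), and G1521 and A1523 (0.0270 ± 0.00482), whose 5′ members are 3 of the 9 uncalled sites. 28S A397 and A399 (0.0695 ± 0.00522) and 18S U172 and C174 (0.0818 ± 0.0150) followed. 18S G509 lay at 0.169 ± 0.0219 of A512, 28S A3866 at 0.211 ± 0.00510 of C3868, 28S G4617 at 0.291 ± 0.0438 of U4619, and 18S C797 at 0.314 ± 0.0979 of U799. Direct neighbours 28S U4226 and G4227 were nearer (0.597 ± 0.0166), as were 18S U1326 and G1328 (0.761 ± 0.0305). The exceptions were 28S C2421 and G2423 (1.43 ± 0.129) and 28S U4619 and G4622 (1.38 ± 0.0912). What sets these ratios was not tested.

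Sites that share a guide differed as well. With U and SNORD names of one number taken as the same snoRNA, the site list gives more than 1 site to 12 guides, counting SNORD62A and SNORD62B as 1. These have 24 sites, of which 23 were called, all but 28S U4497. U24 had like levels at 28S C2350 and C2364 (2536 ± 165 and 2458 ± 340 CPM, SD, n = 3). For U50, 28S C2860 stood at 21483 ± 2139 and G2875 at 2518 ± 281 CPM, for U95 28S A2814 stood at 11068 ± 750 and C2823 at 691 ± 20.7, and for U80 28S G1624 stood at 7548 ± 951 and A1533 at 842 ± 83.3. U15A guides 28S A3784 (10343 ± 2079) and G3791. HBII-202, U32A and U30 each have a site in both rRNAs. For HBII-202 and U32A the 28S site was the higher one, with 28S A2400 (4493 ± 118) against 18S U428 (1234 ± 198), and 28S A1523 (2847 ± 306) against 18S G1328 (1152 ± 54.8). For U30 the 18S site was, with 18S A1383 (3777 ± 379) against 28S A3824 (1983 ± 218). U45A guides 18S A159 (292 ± 18.9) and U172 (144 ± 20.1), which both lay in the lower part of the range, and SNORD45C guides A159 and C174 (1772 ± 108). U58C has the neighbouring sites U4226 and G4227, and SNORD62A/B has 18S A590 (382 ± 54.7) besides U4497 and G4498.

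Across sites, the oxidized level moved with the control ends on the next nucleotide 3′. At sites whose 3′ neighbour is not itself a known site (n = 103, leaving out the site at 0 in oxidized libraries), Spearman's rho between the mean oxidized CPM and the control CPM 1 nt 3′ was 0.773, 0.781 and 0.488 in control replicates 1, 2 and 3. At the site itself rho was 0.429, 0.474 and 0.326, and 1 nt 5′ it was 0.296, 0.291 and 0.373. Within 5 nt on either side, replicates 1 and 2 had no higher rho than 1 nt 3′ (0.291 to 0.510 elsewhere), whereas replicate 3 had higher ones 2 nt 3′ (0.607), 4 nt 5′ (0.534) and 4 nt 3′ (0.523). In replicates 1 and 2, but not in replicate 3, the relation 1 nt 3′ was closest for A sites (0.891, 0.896 and 0.456, n = 33), followed by C (0.730, 0.750 and 0.528, n = 24), G (0.712, 0.692 and 0.432, n = 29) and U sites (0.610, 0.635 and 0.508, n = 17). Ordered by the mean control CPM there, with the site at 0 included, the lowest 35 sites had a median of 834 ± 79.4 oxidized CPM (SD, n = 3), the next 35 had 2428 ± 349, and the highest 34 had 5586 ± 317. The points share their libraries and are not independent, so these values describe the sites and carry no p-value.

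**Figure D5:**
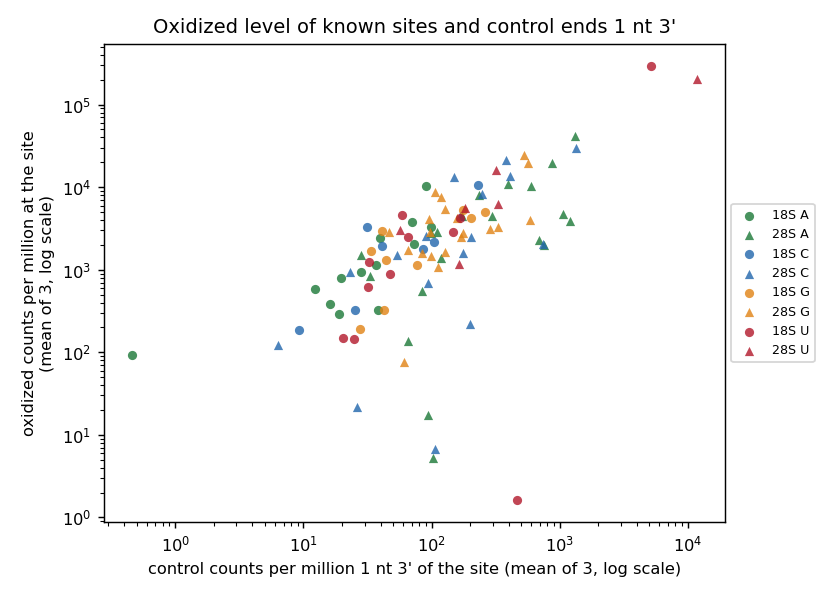
Mean oxidized CPM of each known site (y axis, log scale) against the mean control CPM 1 nt 3′ of it (x axis, log scale), with colors for the base, circles for 18S and triangles for 28S. Oxidized levels tend to be higher at sites with more control ends 1 nt 3′, 18S U1804 and 28S U2414 lie at the upper right, and the uncalled sites C2291, A2362, A3719 and U1668 lie at the bottom, with the called site C4053 (21.9 CPM) near A2362 (17.3 CPM).

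18S U1804 and 28S U2414 had the highest control levels 1 nt 3′ of any known site, at 5144 and 11725 CPM. 28S C4535 and A3829 had 1330 and 1326 CPM there, and 18S A27, low in oxidized libraries, had 0.460 CPM. The base on the 3′ side was U at 27.4% of known sites, against 16.5% of other positions, and C at 17.9% against 31.8%. Sites followed by U had the lowest median oxidized level (1448 ± 78.8 CPM, SD, n = 3), below sites followed by C (2292 ± 371), A (2397 ± 427) and G (2932 ± 314), which overlapped with each other in part.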

How the data were processed

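The deposited counts of the 6 NextSeq libraries were used, which are whole numbers per position of 18S and 28S. The study's methods describe them as tallies of sense reads by the position of their 3′-end, made before normalization. Most of the library totals exceed the sequencer output in reads that the study gives, so the values are not plain read tallies. Per the labels and the study's methods, reads were trimmed with cutadapt 1.12, PCR duplicates were collapsed by a 6-base randomer with adjoining RNA bases, reads were aligned to hg19 with TopHat2 2.1.1 and alignments were converted with SAMtools 0.1.19 and BEDtools. Lines for 5.8S rRNA (153 in each of 2 files) held 0 counts and were left out. Tables of the authors' DESeq2 comparisons hold fold changes and p-values and were not used, and the MiSeq libraries were not analysed here.

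Known sites were those that the study's site list does not mark as new. Shares and CPM are relative to the library total. Oxidized and control libraries were compared with edgeR 4.0.16 in R 4.3.3 by its quasi-likelihood test, after TMM scaling, on the 6718 positions with any count, with Benjamini-Hochberg adjustment over all of them and no covariate. No test was run over the sites of a class, since sites are not replicates. The test and the control gap were first run on simulated data. There, libraries of a group differed only at random, the spread set for the test was below the fitted one, and the gap had no base preference. These runs thus do not cover a library that stands apart, as control replicate 3 did, or the base preference of the ends. Alternatives were DESeq2 1.42.0, other normalizations, filters and thresholds, other flanks and pseudocounts, a replicate block, and leaving out each library. The passage interaction and the joining of close pairs were chosen after seeing the data. The members, classes and rules were chosen with earlier results of these data known.

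Sites named are, per base and rRNA, those with the highest and lowest oxidized share and log2 fold change, the 5 of largest and the 5 of smallest control SD, the 3 with the largest oxidized SD, all uncalled sites, and all sites within 3 nt of another or sharing a guide. 28S C3807 and C4053, the position A3717, and 28S A1325, A3723, A3759, U3924, G4391 and G4636 from the passage interaction were added after their values were seen. The deviations of same-numbered libraries from their group means had correlations of 0.0283, -0.0210 and 0.00921. Control replicate 3 stood apart and so set most of the control deviations. Control replicates 1 and 2 thus gave nearly the same value with oxidized replicate 1 (0.0283 and 0.0289). These values therefore cannot show whether the numbers pair the samples. The main fit used no pairing, although the numbers go with passage (6 for replicates 1 and 2, 4 for replicate 3).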

Additional observations from a re-analysis of the deposited data

Results flagged for a closer look

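An interaction of oxidation and passage was fitted after control replicate 3 had been seen to stand apart, with 1 library of each group at passage 4 and a spread taken from replicates 1 and 2 alone. The 17 known sites with an adjusted p-value under 0.05 in edgeR's quasi-likelihood test therefore restate how replicate 3 differed, and the p-values lend them no support. The fitted fold of oxidized over control was lower in replicate 3 (passage 4) than in replicates 1 and 2 (passage 6), on the log2 scale, at 18S A159 (-6.83), U172 (-5.38) and A590 (-6.35) and at 28S A1523 (-3.18), A3723 (-4.25), A3759 (-3.86), U3924 (-4.26), G4195 (-3.07), G4391 (-3.21) and U4497 (-3.45). It was higher at 28S A1325 (2.73), C2350 (3.24), A2400 (2.38), C2860 (3.67), G3743 (3.80), C3886 (7.43) and G4636 (1.98). Passage 4 has 1 library in each group, so passage and library cannot be told apart. Oxidized replicates 2 and 3, labelled with different passages, were close to counting noise while control replicate 3 stood apart, and whether the passage labels fit the libraries was not tested.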

How the results depend on the processing

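The number of known sites called, 97, depended on the stringency and the scaling. At an adjusted p-value under 0.0001, 0 sites were called by edgeR's quasi-likelihood test in each base and each rRNA, where 102 known sites were higher at an unadjusted p-value under 0.05 and DESeq2's Wald test called 96. With library totals only, which moves the median log2 fold change of all positions from -2.25 to -6.26, 51 sites were called (18 A, 15 C, 10 G and 8 U, or 23 in 18S and 28 in 28S), and the median log2 fold change was 6.80 over all, 7.28 for A, 7.44 for C, 6.33 for G, 6.59 for U, 7.91 for 18S and 6.42 for 28S sites. Under RLE and TMMwsp scaling the median of all positions was -2.47 and -2.35, and 97 known sites were called in both. With counts divided by 50, 92 known sites were called and the C median was 10.99. Positions at an adjusted p-value under 0.05 in edgeR's quasi-likelihood test were then 117 higher and 2 lower, in place of 203 and 1262. With the close pairs joined, 97 known sites were called, but with 22 C and 28 G sites in place of 23 and 27. In that setting 100 positions were called in place of 103. Positions higher at an adjusted p-value under 0.05 then numbered 101 in place of 203.

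Leaving out 1 library in turn gave 90 to 98 calls and a median log2 fold change of 10.85 to 12.43 over all, 11.28 to 13.57 for A, 11.48 to 11.78 for C, 10.32 to 11.47 for G, 10.65 to 13.13 for U, 11.92 to 13.90 for 18S and 10.45 to 11.65 for 28S sites, each highest without control replicate 3. The control spread ranged from 0.22 to 1.68 over all, 0.19 to 2.38 for A, 0.22 to 0.82 for C, 0.30 to 1.95 for G, 0.18 to 1.71 for U, 0.18 to 1.73 for 18S and 0.22 to 1.53 for 28S sites, lowest without control replicate 3, and was 0.32 for C with a pseudocount of 10 CPM. The oxidized spread ranged from 0.0489 to 0.168 over all, 0.0601 to 0.168 for A, 0.0749 to 0.223 for C, 0.0397 to 0.154 for G, 0.0475 to 0.165 for U, 0.0638 to 0.218 for 18S and 0.0477 to 0.155 for 28S sites, lowest without oxidized replicate 1. Apart from the 5 sites with most oxidized counts, which were kept in the library total, known sites held 35.3% of the oxidized total over all, 10.8% for A, 9.36% for C, 10.1% for G, 5.03% for U, 8.61% for 18S and 26.7% for 28S sites, and counts within 1 nt raised it to 96.0% over all. The causes were not tested.

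With the replicate number as a block, 98 known sites were called and their median log2 fold change was 12.15. The block moved the count of positions at an adjusted p-value under 0.05 from 203 to 115 higher and from 1262 to 64 lower in oxidized libraries. The number goes with passage (6 for replicates 1 and 2, 4 for replicate 3), and whether it also pairs the libraries could not be told from these data. With passage as a covariate, 98 known sites were called, their median log2 fold change was 12.06, and 297 positions were higher and 1778 lower. Leaving out 1 control library in turn, the mean control gap ranged from 0.0877 to 0.216 over all, 0.0421 to 0.200 for A, 0.127 to 0.211 for C, 0.150 to 0.276 for G, 0.0769 to 0.291 for U, 0.0744 to 0.220 for 18S and 0.107 to 0.219 for 28S sites. Each was lowest without control replicate 3, except that of C, which was then highest. Other flanks gave 0.121 to 0.180 over all, against 0.169. By base they gave 0.0746 to 0.221 for C, against 0.156, and 0.138 to 0.233 for G, against 0.226. For A they gave 0.121 to 0.173, against 0.147, and for U 0.148 to 0.221, against 0.219. Control depth limits sites such as 18S A27, at 0 in every control library, and oxidized depth limits 28S G4043.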
